A study of Mus musculus with 8 samples.

Results

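The liver X receptors LXRα and LXRβ, encoded by Nr1h3 and Nr1h2, and 8 of their target genes in lipid export were examined in the transcriptome of CD11c+ splenocytes from lupus-prone and control mice. The targets were Abca1, Abcg1, Apoe, Apoc1, Mylip, Lpcat3, Pltp and Srebf1. The 10 genes were chosen by symbol, all 10 were among the 13786 protein-coding genes counted, and each had at least 60 reads in every library. RNA was sequenced from 4 C57BL/6 mice and 4 B6.SLE123 mice, all untreated females aged 7 weeks. B6.SLE123 mice carry 3 lupus susceptibility intervals, named Sle1, Sle2 and Sle3, on a C57BL/6 background, and were studied before overt disease. The genotype numbers in the labels rise from sample to sample, so the strain was taken from the sample names, and each library was taken as 1 mouse, which the names imply without stating it. If libraries of a strain shared a mouse, the p-values would measure technical spread.

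LXRs are nuclear receptors that bind DNA together with a retinoid X receptor and are switched on by oxidized cholesterol. In macrophages that have taken up dying cells or lipoproteins, they raise the genes that move surplus cholesterol out of the cell onto apolipoproteins and high-density lipoprotein, and they limit further uptake. In the spleen, LXRα is also known to be needed for the macrophages of the marginal zone.

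The libraries held between 25563070 and 37367094 counts. Itgax, which encodes CD11c, was detected at 1329 ± 77.9 CPM (SD, n = 4) in C57BL/6 and 1543 ± 93.4 CPM (SD, n = 4) in the lupus-prone mice. CPM is the usual unit for a gene's reads relative to the library total, here after TMM scaling. All 3 dendritic cell markers were higher in B6.SLE123 mice. By the test given below, 26.7% of all genes were higher and 26.6% were lower. Markers of splenic macrophages were present in both strains and were much lower in B6.SLE123 mice. All 12 red pulp macrophage markers were lower (median log2 fold change -2.47), and none was at 0 in any mouse. Adgre1, which encodes F4/80, was at 737 ± 55.5 against 233 ± 44.3 CPM, the adhesion molecule gene Vcam1 at 2471 ± 331 against 453 ± 148 CPM, and Spic, the factor of red pulp macrophages, at 373 ± 31.9 against 56.4 ± 15.2 CPM (SD, n = 4). Their summed level was between 12608 and 15987 CPM in C57BL/6 mice and between 1772 and 3518 CPM in B6.SLE123 mice. All 3 markers of marginal zone macrophages were lower as well (median log2 fold change -1.77), with summed levels of 167 to 202 CPM against 34.5 to 62.6 CPM, and the scavenger receptor gene Marco fell by 2.10 on the log2 scale. In RNA from a mixed preparation, fewer cells of a type and less RNA per cell cannot be told apart, and the part of these markers in the results below was not tested.

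Of the 10 genes, 9 were lower in B6.SLE123 mice, 0 were higher, and Nr1h2 did not pass the test (edgeR's quasi-likelihood test, adjusted p below 0.05 over 13786 genes; at an unadjusted p below 0.05 the number higher was also 0). Among all genes, 53.4% passed this test, 26.6% as lower and 26.7% as higher. The decreases fell into a wide range. Apoe, Apoc1, Nr1h3 and Abca1 decreased more than 2-fold, where 8.29% of all genes did so, and the other 5 genes decreased by less. For 8 of the 10 genes the highest B6.SLE123 value lay under the lowest C57BL/6 value, as was true of 24.5% of all genes. The median log2 fold change was -0.56 for the 10 genes and -0.002 for all genes.

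**Figure D1:**
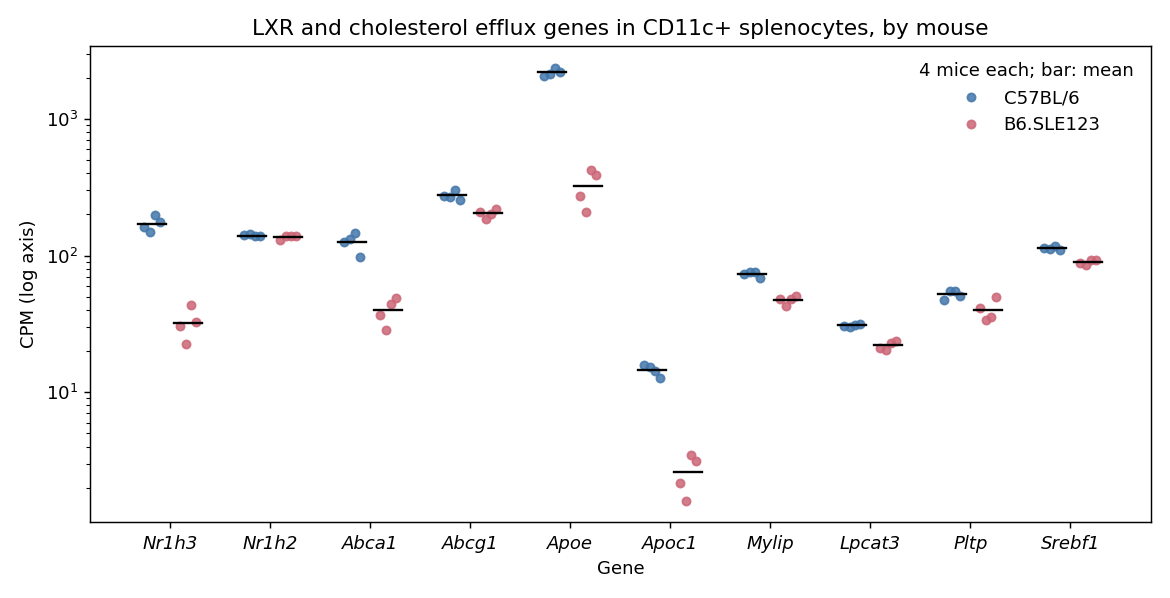
Level of each of the 10 genes in CPM (log axis) in 4 C57BL/6 mice (blue) and 4 B6.SLE123 mice (red), with a bar at the mean. The strains are apart for 8 genes and overlap for Nr1h2 and Pltp. The distance between them is widest for Apoe, Apoc1 and Nr1h3.

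The genes for the receptors behaved differently from each other. Nr1h3, which encodes LXRα, the form enriched in macrophages, was at 163, 150.1, 198 and 175 CPM in the 4 C57BL/6 mice and at 30.6, 22.4, 43.8 and 32.4 CPM in the 4 B6.SLE123 mice. The strains did not overlap, and the mean in B6.SLE123 mice was 18.8% of the control mean (log2 fold change -2.41, standard error 0.17, adjusted p = 1.11e-06). Nr1h2, which encodes the widely expressed LXRβ, was at 142, 143, 138 and 138 CPM in C57BL/6 mice and at 129, 140.3, 139 and 139 CPM in B6.SLE123 mice. These values overlapped, and the change did not pass the test (log2 fold change -0.04, standard error 0.04, adjusted p = 0.486). In each mouse, the level of Nr1h3 per length of its exons was compared with that of Nr1h2. The ratio was 1.64 ± 0.222 (SD, n = 4) in C57BL/6 mice and 0.315 ± 0.0843 (SD, n = 4) in B6.SLE123 mice. By this measure, LXRα transcripts exceeded those of LXRβ in every control mouse and were fewer in every B6.SLE123 mouse. The lengths take in every annotated exon, and the transcripts present may be shorter. The ratio differed between the strains (exact two-sided permutation test of the log2 ratio, p = 0.0286, the smallest that 4 mice against 4 allow, and 0.0286 after adjustment over the 6 ratios computed). The genes of the 6 ratios were paired once their values were known, so these p-values describe the separation and give no independent support.

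Nr1h3 lies on the minus strand of chromosome 2 from 91184061 to 91202834 in mm10 and shares 34 bases of exon with Gm13783 on the same strand, a gene not analysed here. Nr1h2 lies on chromosome 7 from 44549616 to 44553951 and overlaps no other annotated gene. Of 71 counted genes within 1 Mb of it, 29 were lower, 12 of them more than 2-fold, and 21 were higher. Among all genes, 26.6% were lower, 8.29% were more than 2-fold lower and 26.7% were higher.

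Abca1 and Abcg1 encode the transporters that carry cholesterol across the plasma membrane, the former to lipid-poor apolipoprotein A-I and the latter to high-density lipoprotein. Abca1 was at 125, 133, 147 and 97.6 CPM in C57BL/6 mice and at 37, 28.6, 44.4 and 48.9 CPM in B6.SLE123 mice. No values overlapped, and the mean fell to 31.6% of the control mean (log2 fold change -1.67, standard error 0.16, adjusted p = 9.42e-06). Abcg1 was at 275, 269, 304 and 254 CPM in C57BL/6 mice and at 209, 185, 200.2 and 219.5 CPM in B6.SLE123 mice. It too was lower in each B6.SLE123 mouse, but its mean remained at 73.8% of the control mean (log2 fold change -0.44, standard error 0.07, adjusted p = 0.000212). The transporters therefore decreased to different degrees. The ratio of Abca1 to Abcg1 per length was 0.320 ± 0.0351 (SD, n = 4) in C57BL/6 mice and 0.137 ± 0.0237 (SD, n = 4) in the lupus-prone strain (exact two-sided permutation test, p = 0.0286, likewise 0.0286 after adjustment over 6 ratios).

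LXR and its partner recognize pairs of similar half-sites separated by 4 bases, known as DR4 elements. RefSeq promoters of GRCm38.p6, which run from 250 bases before to 50 bases after a start site, were searched on both strands for the half-site GGTNA followed, after any 5 bases, by GGTNA again, letters taken from general knowledge of such elements. Promoters were given for 8 of the 10 genes, with 13 start sites, and 2 of these held a match, that of Abca1 and the most downstream of 3 starts of Srebf1. Among all 32851 promoters 236 held one, or 0.718%. The matches are shown because they are the receptor's letters in front of 1 gene that fell strongly and 1 that fell little. Each line gives 65 bases on the gene's strand, 5′ to 3′, with the match in capitals, where it reads as the reverse complement of the letters searched. The Abca1 stretch is chr4:53159923-53159987 on the minus strand, with the match from 67 to 53 bases before the start. The Srebf1 stretch is chr11:60210614-60210678 on the minus strand, with the match from 182 to 168 bases before the start.
Abca1: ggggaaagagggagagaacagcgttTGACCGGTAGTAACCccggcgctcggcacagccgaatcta
Srebf1: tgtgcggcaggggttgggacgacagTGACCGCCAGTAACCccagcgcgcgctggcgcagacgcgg

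The matches of Abca1 and Srebf1 share 13 of 15 letters. These include all the letters that the search itself fixed, which any matches have in common. A match is a description of the letters and not a measured binding site, and the counts do not separate the 3 starts of Srebf1. The PU.1 box AGAGGAAG, a sequence bound by the factor that the study examined at other genes, was found in 1 of the 13 promoters, 9 to 16 bases downstream of a start of Nr1h3, and in 4.55% of all promoters. The sterol regulatory element TCACNCCAC was found in 0 of the 13 and in 1.24% of all promoters.

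The apolipoprotein genes showed the largest decreases among the 10. Apoe encodes apolipoprotein E, which macrophages secrete and which accepts exported cholesterol. It was at 2059.6, 2148, 2378 and 2203 CPM in C57BL/6 mice and at 273, 207, 419.7 and 386 CPM in B6.SLE123 mice. The mean in B6.SLE123 mice was 14.6% of the control mean, with no overlap (log2 fold change -2.77, standard error 0.19, adjusted p = 1.04e-06), and 1.13% of all genes had a lower log2 fold change. Apoc1, which encodes a small apolipoprotein of triglyceride-rich and high-density lipoproteins, was at 15.9, 15.2, 14.4 and 12.7 CPM in C57BL/6 mice and at 2.15, 1.61, 3.46 and 3.15 CPM in B6.SLE123 mice. It decreased to a similar share, 17.8% of the control mean (log2 fold change -2.50, standard error 0.19, adjusted p = 1.96e-06).

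Apoe and Apoc1 are neighbours on the minus strand of chromosome 7, Apoc1 from 19689481 to 19692660 and Apoe from 19696109 to 19699188, and no other annotated gene overlaps either. Apoc2 and Apoc4, of the same gene cluster, were not analysed here. Per length, Apoe exceeded Apoc1 by 53.0 ± 7.10 times (SD, n = 4) in C57BL/6 mice and by 43.4 ± 1.16 times (SD, n = 4) in B6.SLE123 mice. The ranges of this ratio, 45.2 to 60.3 and 42.2 to 44.6, nearly touched, although they did not overlap (exact two-sided permutation test, p = 0.0286, and 0.0286 adjusted over 6 ratios). The other 3 ratios computed were also apart between the strains at the same p. The 6 ratios share genes and were chosen with the values known, so they are not independent results. Apoe exceeded Nr1h3 per length by 15.2 ± 1.18 times in C57BL/6 and by 11.7 ± 1.59 times in B6.SLE123 mice (SD, n = 4), and Abca1 by 86.5 ± 15.3 and 38.7 ± 4.94 times (SD, n = 4). The ratio of Abca1 to Nr1h3 was the one that was higher in B6.SLE123 mice, at 0.304 ± 0.0493 against 0.179 ± 0.0331 (SD, n = 4).

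The remaining targets act on lipids in other ways, and each decreased by less than 2-fold. Mylip encodes a ubiquitin ligase, also known as IDOL, that sends the low-density lipoprotein receptor to degradation. It was at 73.1, 75.4, 76.2 and 68.2 CPM in C57BL/6 mice and at 48.3, 43.0, 48.5 and 50.2 CPM in B6.SLE123 mice, without overlap (log2 fold change -0.62, standard error 0.06, adjusted p = 6.14e-06). Lpcat3 encodes an enzyme that places polyunsaturated fatty acids in membrane phospholipids. Its levels were 30.7, 30.1, 31.3 and 31.4 CPM against 21.2, 20.3, 23.0 and 23.6 CPM, again without overlap (log2 fold change -0.49, standard error 0.06, adjusted p = 4.27e-05). Srebf1, which encodes the SREBP-1 transcription factors of fatty acid synthesis, was at 113, 112, 117 and 109 CPM in C57BL/6 mice and at 87.8, 85.4, 92.3 and 92.8 CPM in B6.SLE123 mice. Although this is the smallest decrease to pass, the strains did not overlap (log2 fold change -0.33, standard error 0.04, adjusted p = 7.62e-05).

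Pltp encodes the phospholipid transfer protein of plasma lipoproteins. It was at 47.4, 55.0, 55.5 and 50.2 CPM in C57BL/6 mice and at 41.2, 33.5, 35.8 and 50.1 CPM in B6.SLE123 mice. The highest B6.SLE123 mouse lay above the lowest control mouse, and the decrease passed the test all the same (log2 fold change -0.38, standard error 0.11, adjusted p = 0.0137). Of the exon bases of Pltp, 19.3% are shared with Ctsa on the other strand, which was at 505 CPM in C57BL/6 and 348 CPM in B6.SLE123 mice (log2 fold change -0.54, adjusted p = 7.52e-05). The libraries were made with a stranded kit, but whether the counting used strand is not given in the sources used here, so reads of Pltp are uncertain. For the same reason reads are uncertain over 10.2% of the exon bases of Lpcat3, shared with Emg1 (log2 fold change 0.00, adjusted p = 0.958), and over 1.93% of those of Srebf1, shared with Rai1 (log2 fold change 0.09, adjusted p = 0.223).

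Levels of different genes were compared in CPM per kilobase of merged exons, with the same limit on length as above. Apoe stood far above the others in both strains, at 1028 ± 62.9 (SD, n = 4) in C57BL/6 and 150.4 ± 46.3 (SD, n = 4) in B6.SLE123 mice. In C57BL/6 mice it was followed by Nr1h3 at 68.2 ± 8.17, by Nr1h2 at 41.8 ± 0.757 and by Abcg1 at 37.8 ± 2.87 (SD, n = 4). The latter pair overlapped between mice. Mylip, Pltp, Srebf1 and Apoc1 came next with means between 19.5 and 22.6, each overlapping its neighbour in the order. Abca1 at 12.1 ± 2.0 and Lpcat3 at 9.45 ± 0.196 (SD, n = 4) were lowest and overlapped.

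The order changed in B6.SLE123 mice. Nr1h2, at 40.8 ± 1.54 (SD, n = 4), moved to the second place and Abcg1, at 27.9 ± 2.01, to the third. Nr1h3 dropped to the seventh place at 12.8 ± 3.50 (SD, n = 4), below Srebf1, Pltp and Mylip, with which it formed a chain of overlapping neighbours. Abca1 at 3.83 ± 0.857 and Apoc1 at 3.49 ± 1.16 (SD, n = 4) closed the order and overlapped.

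**Figure D2:**
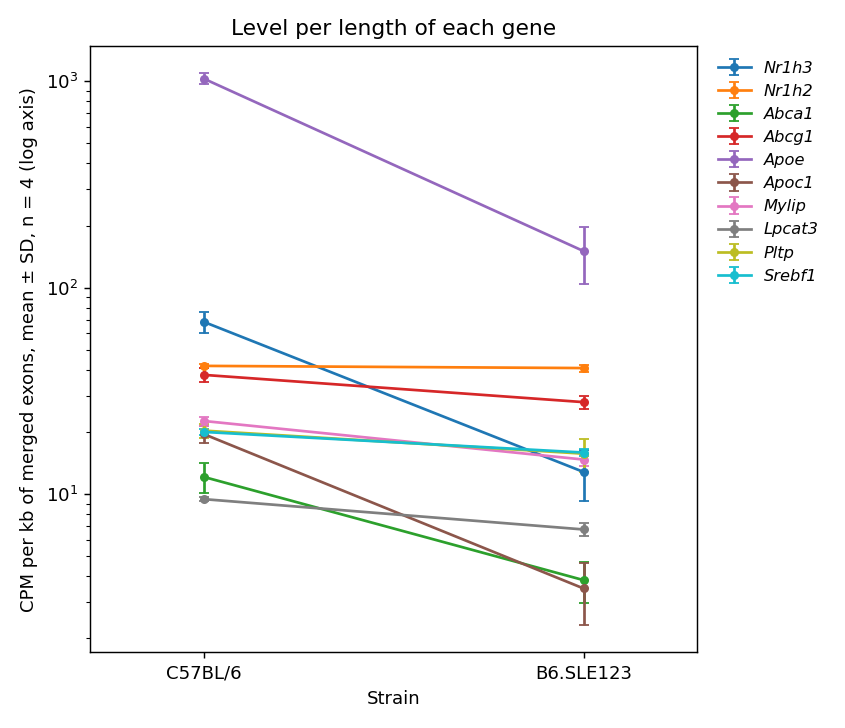
Mean level of each gene in CPM per kilobase of merged exons (log axis), with the SD over 4 mice, in C57BL/6 and B6.SLE123 mice. The lines of Apoe, Nr1h3, Apoc1 and Abca1 are steep and that of Nr1h2 is flat, so that Nr1h3 crosses Nr1h2 and Abcg1.

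The genes with the largest decreases also varied most among B6.SLE123 mice. The coefficient of variation there was 27.3% for Nr1h3, 30.8% for Apoe, 33.2% for Apoc1 and 22.4% for Abca1, against 3.78% for Nr1h2 and 4.01% for Srebf1. In C57BL/6 mice, that of the genes with the largest decreases ranged from 6.12% for Apoe to 16.5% for Abca1, so the contrast between strains was widest for Apoe and smaller for Abca1. B6.SLE123 replicate 2 had the lowest level of 9 of the 10 genes in its strain, and it also had the lowest mean level of the red pulp macrophage markers. C57BL/6 replicate 3 had the highest level of 7 of the 10 genes in its strain and the highest mean of those markers. The other ends matched less. C57BL/6 replicate 2 had the lowest marker mean but the lowest level of only 2 of the 10 genes, and 5 were lowest in replicate 4. B6.SLE123 replicate 4 had the highest marker mean and the highest level of 6 genes, but Nr1h3, Apoe and Apoc1 were highest in replicate 3. The share of all genes lowest or highest in these mice is not given, so whether these counts are particular to the 10 genes was not tested.

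To set the genes beside the macrophage markers, the mean log2 CPM of the 12 red pulp macrophage markers was subtracted from the log2 CPM of each gene in the same mouse. Relative to these markers, Nr1h3 was at -2.26, -2.22, -2.15 and -2.13 in C57BL/6 mice and at -2.03, -2.09, -1.96 and -2.52 in B6.SLE123 mice, so the strains overlapped and their means differed by 0.04. Apoc1 overlapped likewise, with a difference of -0.04. Apoe was lower relative to the mean of the markers, by -0.35 and without overlap, as were 0.385% of the genes outside the marker list. The markers themselves, left out of this share, had log2 fold changes from -2.77 (Hpgd) to -1.66 (Adgre1). That of Apoe was -2.77, equal after rounding to that of the lowest marker. Abca1 was higher relative to the markers by 0.80, and the other 6 genes by 1.85 (Mylip) to 2.44 (Nr1h2), all 7 without overlap. Among all genes outside the marker list, 95.4% were higher in this sense, so that the count of 7 is not particular to these genes.

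**Figure D3:**
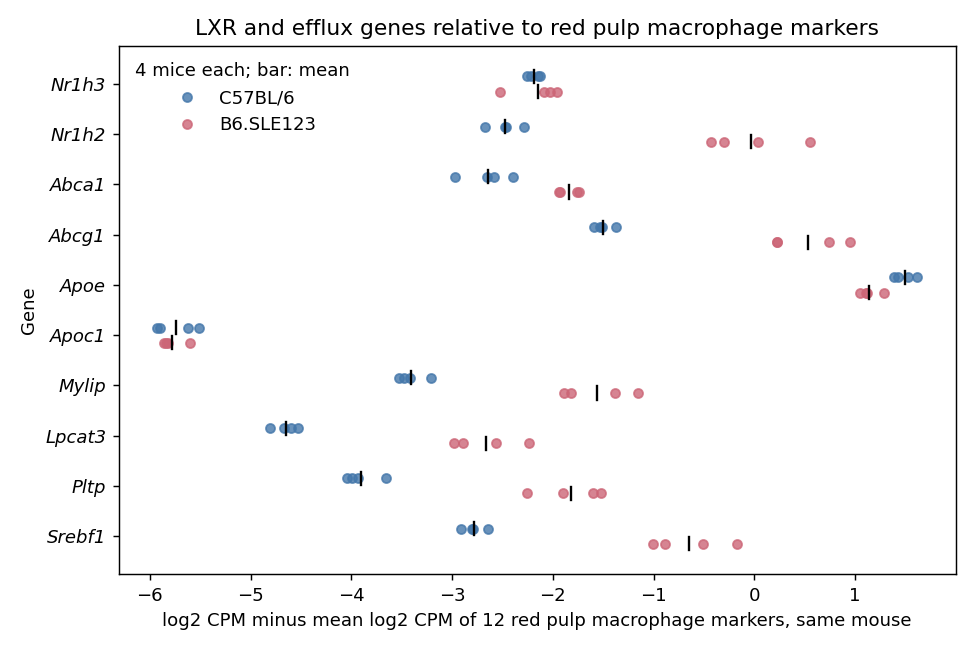
Difference, in each mouse, between the log2 CPM of a gene and the mean log2 CPM of 12 red pulp macrophage markers, for 4 C57BL/6 mice (blue) and 4 B6.SLE123 mice (red), with a bar at the mean. The strains overlap for Nr1h3 and Apoc1, Apoe is slightly lower in B6.SLE123 mice, and the other 7 genes lie to the right in B6.SLE123 mice.

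The genes whose levels over the 8 mice ran closest to those of Nr1h3 and of Apoe were found among 9080 others with a mean of at least 10 CPM, by the root mean squared difference of log2 CPM after each gene was centred on its own mean. Closest to Nr1h3 were Rab3il1 (difference 0.107), Slc1a3 (0.125), Pilrb1 (0.127), Adcy3 (0.129) and Vnn3 (0.145). Apoe took the 76th place at 0.234 and Abca1 the 203rd at 0.444. Apoc1, whose mean was below 10 CPM, was not ranked, and its difference was 0.207 from Nr1h3 and 0.197 from Apoe. Among the closest to Apoe were Sema6a (0.0727), Hpgd (0.0888), Cox6a2 (0.0983) and Spic (0.119), of which Hpgd and Spic stand in the red pulp macrophage list and Cox6a2 in that of plasmacytoid dendritic cells. The difference between strains makes up most of these patterns.

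Genes that act with LXR were examined next. Among all genes, 26.6% were lower and 26.7% were higher, and the counts of this list and of those below stand beside these shares. A list near them is not particular. Of 14 partners and co-regulators, 3 were lower and 5 were higher in B6.SLE123 mice, and their median log2 fold change rounded to 0.00. Rxra, which encodes the retinoid X receptor α, was at 218 ± 20 CPM (SD, n = 4) in C57BL/6 and at 72.3 ± 8.83 CPM (SD, n = 4) in B6.SLE123 mice (log2 fold change -1.59, adjusted p = 4.28e-07), whereas its relative Rxrb was at 139 and 132 CPM and did not pass (log2 fold change -0.07, adjusted p = 0.172). Rxrg, the third retinoid X receptor gene, was low in every mouse, between 0.605 and 1.13 CPM in C57BL/6 and between 0.207 and 0.348 CPM in B6.SLE123 mice, and passed as lower (log2 fold change -1.67, adjusted p = 0.000775). Nrip1, a corepressor gene, fell by 0.46 on the log2 scale, while the coactivator genes Ncoa1 and Ncoa2 rose by 0.37 and 0.31 (adjusted p = 0.000147 and 0.000981).

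Among 18 other LXR target genes, 13 were counted. Of these, 7 were lower and 3 were higher, with a median of -0.44. Mertk, a receptor for dying cells, was at 456 ± 38.5 CPM (SD, n = 4) against 68.3 ± 27.9 CPM (SD, n = 4) (log2 fold change -2.75), and Cd5l, which encodes a protein secreted by macrophages, was at 485 ± 58.0 against 89.4 ± 31.6 CPM (log2 fold change -2.44). The genes for enzymes that build, lengthen or desaturate fatty acids moved in both directions. Fasn and Acaca rose by 0.58 and 0.52 on the log2 scale (adjusted p = 5.01e-05 and 6.11e-05) and Elovl5 by 0.15 (adjusted p = 0.0167), whereas the desaturase genes Fads1 and Scd1 fell by 0.59 and 0.44 (adjusted p = 0.000183 and 0.00246). Scd2 and Fads2 did not pass (log2 fold changes -0.08 and -0.14). Of 10 enzymes that make or convert sterol ligands, 7 were counted, of which 2 were lower and 1 was higher (median -0.02). Cyp27a1, which makes 27-hydroxycholesterol, fell by 0.28 on the log2 scale, and Cyp7b1, which converts it further, rose by 1.0 on that scale from 1.38 ± 0.16 to 2.76 ± 0.948 CPM (SD, n = 4). Sult2b1, a sterol sulfotransferase gene, had between 27 and 42 counts in C57BL/6 mice and between 0 and 3 counts in B6.SLE123 mice.

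Of 21 genes of cholesterol uptake and storage, 20 were counted, and 14 were lower and 1 was higher (median -0.30). Lrp1, a receptor for lipoproteins that contain apolipoprotein E, was at 1216 ± 150.3 CPM (SD, n = 4) against 316 ± 77.8 CPM (SD, n = 4) (log2 fold change -1.94, adjusted p = 3.45e-06), and the scavenger receptor gene Msr1 fell by 2.43 on the log2 scale. Cd36, a fatty acid and lipoprotein receptor gene, moved the other way, from 76.3 ± 9.17 to 152 ± 23.2 CPM (SD, n = 4; log2 fold change 0.99, adjusted p = 2.60e-05). Of 14 genes around SREBP-2, the factor of cholesterol synthesis, 13 were counted, with 4 lower and 3 higher (median -0.07). Insig1 and Mvd fell by 0.74 and 0.38 on the log2 scale, and Srebf2, which encodes the factor itself, rose by 0.32. Of 6 genes for extracellular acceptors of cholesterol, 3 were counted (median 0.26), all at under 1 CPM, and by edgeR 0 passed the adjusted test, as with DESeq2 and limma-voom, and 0 had an unadjusted p below 0.05.

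**Figure D4:**
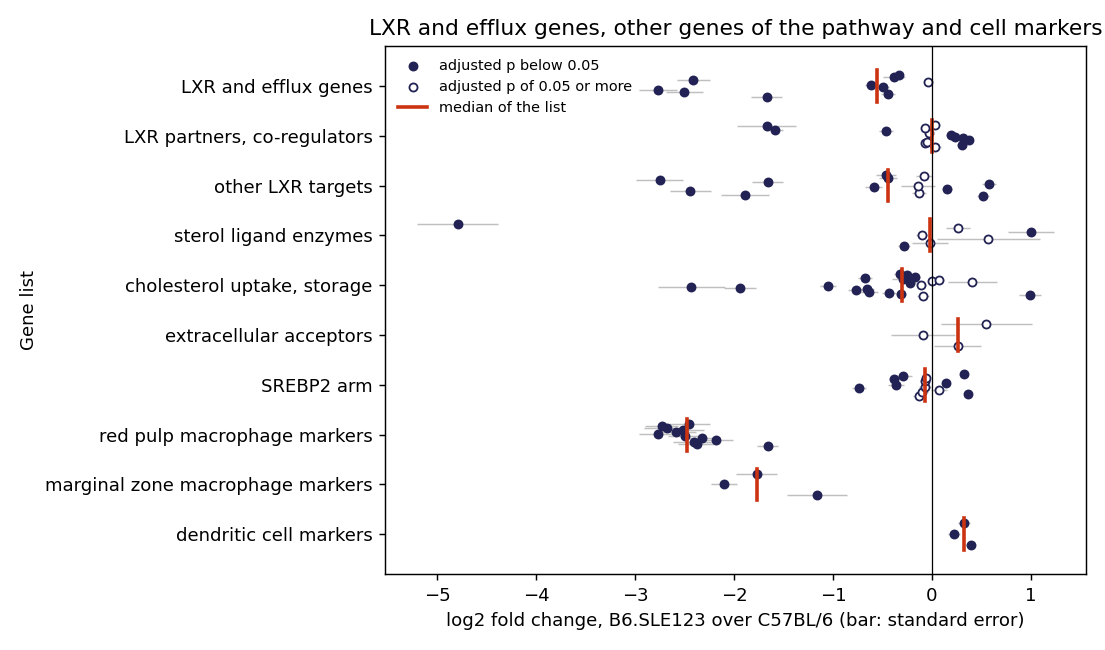
Log2 fold change (B6.SLE123 over C57BL/6) of each gene, with its standard error, for the 10 LXR and efflux genes, 6 lists of other pathway genes and 3 lists of cell markers. Filled points had an adjusted p below 0.05, and red bars mark medians. The red pulp macrophage markers lie between -2.77 and -1.66, a range reached by Apoc1, Nr1h3 and Abca1 and by Apoe at its lower end, while the dendritic cell markers lie between 0.22 and 0.39.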

How the data were processed

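CD11c+ splenocytes of 4 C57BL/6 and 4 B6.SLE123 mice were profiled by RNA sequencing. According to the methods and processing notes, the authors used cutadapt for trimming, STAR for alignment to mm10 and featureCounts for counting; versions and strand setting are not given in the sources used here. The deposited table holds raw counts, without normalization, for protein-coding genes whose larger strain median was at least 5. Its columns with the authors' DESeq2 comparison (mean, fold change, error and p-values) were not used. The 10 genes and all gene lists were chosen with earlier results of these data known.

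Library totals were adjusted by TMM factors, and strains were compared by edgeR 4.0.16 (R 4.3.3; quasi-likelihood test, Benjamini-Hochberg adjustment over 13786 genes, no filter). Log2 CPM used a prior count of 2. The fit was tested on simulated counts with 200 of 13786 genes changed, equally up and down. Of 205 calls, 14 were false. Far more genes passed in the real data, so scaling under such broad change was not tested. No 2 libraries of a strain agreed within sampling noise (chi-square per degree of freedom between 4.87 and 18.3). Exon lengths and overlaps came from GENCODE M21, whose coordinates match the table for all 10 genes; promoters came from RefSeq. Named genes were the 10 genes, Itgax, the 2 largest rises and falls called in each pathway list with at least 1 CPM in the higher strain, Adgre1, Vcam1, Spic, Marco, and the 5 genes closest in pattern to Nr1h3 and to Apoe; some genes that this rule names are not reported here. Rxrb, Rxrg, Elovl5, Fads1, Fads2, Scd1, Scd2 and the genes sharing exon bases were added once their values were known, as were the 6 ratios. Alternatives were relative log expression factors, at least 10 counts in every sample, a replicate block, DESeq2 1.42.0, limma-voom (limma 3.58.1), a prior count of 0.5 and each mouse left out.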

Additional observations from a re-analysis of the deposited data

Results flagged for a closer look

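In 2 of 58 groups of 4 mice tested, among the 10 genes and the means of the gene lists, a mouse lay apart from the others of its strain, where chance gives about 2.9. Nr1h2 was at 7.01 log2 CPM in B6.SLE123 replicate 1 against a strain median of 7.12, and without this mouse its log2 fold change was -0.011. The mean of the sterol ligand enzymes was 2.28 log2 CPM in C57BL/6 replicate 2 against a median of 2.48.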

How the results depend on the processing

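Over 14 alternative settings, all 130 log2 fold changes of the 10 genes kept both sign and call, and 214 of 217 counts stayed within 1.5 times. Of the sterol ligand enzymes, 1 was lower with at least 10 counts in every sample (fewer genes were tested), and 2 were higher with the replicate block, where the cause was not tested. Leaving out each mouse gave 1 to 2 higher, the 2 without B6.SLE123 replicate 2. Over those fits the log2 fold change was -2.599 to -2.277 for Nr1h3, -1.789 to -1.544 for Abca1, -2.929 to -2.620 for Apoe and -0.510 to -0.309 for Pltp, and 6496 to 7013 genes passed. The correlations do not settle whether replicate numbers pair the mice. Deviations of same-numbered mice correlated between 0.051 and 0.262 across genes, against -0.309 to 0.126 for mice of different number. Not every mouse correlated best with its own number, and the main fit used no pairing. With the replicate block 7183 genes passed against 7356. With 4 mice a strain, smaller differences than those given may have been missed.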

Other observations

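Of 46 counted genes within 1 Mb of Apoe, 19 were lower, 11 of them more than 2-fold, and 11 were higher. Among all genes, 26.6% were lower, 8.29% were more than 2-fold lower and 26.7% were higher. Whether the strains differ in sequence near these genes was not tested. Of 6 near Abca1, 0 were lower and 3 were higher by edgeR, with a median log2 fold change of 0.37, the opposite sign to that of Abca1. Of 32 near Nr1h3, 9 were lower and 12 were higher, with a median of 0.04.

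Among markers of other cell types, 6 of 8 type 1 conventional dendritic cell genes were higher and 1 was lower in B6.SLE123 mice (median log2 fold change 0.84), and 6 of 8 B cell genes were lower (median -0.58), as were 4 of 5 erythroid genes counted (median -2.78). Over all genes, 26.7% were higher and 26.6% were lower. The medians were -0.29 for type 2 conventional and -0.01 for plasmacytoid dendritic cells, -0.12 for monocytes, -0.23 for neutrophils, -0.32 for T cells and -0.23 for NK cells.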
